A study of Mus musculus with 4 samples.

Results

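Myelin is laid around axons of the brain by oligodendrocytes, and its main proteins are made from a small set of mRNAs, some of which are carried out to the myelin sheath before they are translated. N6-methyladenosine (m6A) is a methyl mark that a nuclear enzyme complex places on adenosines of mRNA, mostly within a short sequence around GGACT, and it is known to be frequent near stop codons and in long exons. Reader proteins bind the mark and alter the stability, splicing or translation of the mRNA. In m6A-seq an antibody pulls down short mRNA fragments that carry the mark, and a peak is a stretch of the genome where the pulled-down (IP) reads are enriched over the input reads.

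The 9 genes described here are Mbp, Mobp, Mog, Mag, Opalin, Cldn11, Cnp, Ugt8a and Ermn, named as genes of myelin proteins, out of 21951 protein-coding genes in the annotation (GENCODE M21, mouse build mm10). All peaks that overlapped an annotated exon of these genes by at least 1 bp were taken, and the genes were listed by name rather than by a threshold on Enrichment or on the number of peaks. The list was made with earlier results of these data known, so counts over it are a description. The samples came from whole brain of 4-week-old mice, labelled as strain C57BL/6J, and the series text describes the mice as Prrc2a flox/flox. Prrc2a encodes an m6A-binding protein, and flox marks an allele flanked by loxP sites. The labels name no Cre, no other treatment and no second condition, so no comparison between conditions was possible. The series holds 4 samples, 2 m6A IP and 2 input, and the methods call the IP samples biological replicates. A peak list was used for each IP sample, with 38533 peaks in replicate 1 and 30134 in replicate 2, and the read depth behind them is unknown. Each peak has a position and an Enrichment, the fold of IP over input, but no strand, summit, read count or q value. Peaks lay over 7 of 7 brain markers in replicate 1 and 6 of 7 in replicate 2, and over none of 5 liver and muscle markers (Alb, Apoa1, Acta1, Myh4 and Ckm). Whole brain mixes oligodendrocytes with neurons and other glia, so a difference in cell number cannot be told apart from a difference per cell. A gene or region without a peak is not shown to be free of m6A.

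Every one of the 9 genes had an exonic peak in both replicates, and the peaks of both replicates shared bases in every one. Over all protein-coding genes 54.4% had an exonic peak in replicate 1, 49.5% in replicate 2, and 45.5% had a shared exonic interval. The 9 genes held 31 peaks in replicate 1 and 33 in replicate 2, of which 26 (83.9%) and 25 (75.8%) overlapped a peak of the other replicate. Over all exonic peaks of protein-coding genes these shares were 67.8% and 76.8%. None of the 64 member peaks touched an exon of another gene.

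GGACT occurred 37 times in the annotated exons of the 9 genes, on the strand of the gene, and 7 of these sites lay under a peak in both replicates. The same count was not made over all genes, so 7 of 37 is a description. Exons of every annotated transcript were searched, including noncoding ones. For example, none of the 6 Mag sites lies on the representative Mag-207. The 7 sites belonged to 5 genes, 2 each to Mobp and Opalin and 1 each to Mbp, Cnp and Ermn. The sites of the 4 genes other than Mbp are printed because they are the places where the main m6A sequence and a peak of both replicates coincide. They are written 5′ to 3′ with GGACT in capitals, from the reference genome of the same build (mm10), with the methylatable A in the middle of 21 bases.

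Mobp, coding sequence, exon 4, chr9:120168364-120168384, plus strand: cccttcaaGGACTgagcgcca

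Mobp, 3′ UTR of Mobp-202, chr9:120174658-120174678, plus strand: actcgtgtGGACTgctgtgtg

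Cnp, coding sequence, exon 2, chr11:100576770-100576790, plus strand: ctggagaaGGACTttctgcca

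Opalin, coding sequence, exon 6, chr19:41063829-41063849, minus strand: ggagaagaGGACTttggtggc

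Opalin, 3′ UTR, exon 6, chr19:41062557-41062577, minus strand: cctttcttGGACTgaaccaaa

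Ermn, coding sequence, exon 3, chr2:58047925-58047945, minus strand: gcaagggaGGACTccccacta

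Of the other sites, 4 were under a peak of replicate 1 alone, 2 under a peak of replicate 2 alone and 24 under none. Both sites found only under a replicate 2 peak are shown next, since they lie near the start codon of Mog and near the end of the Ugt8a coding sequence.

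Mog, 5′ UTR, exon 1, chr17:37023213-37023233, minus strand: gctgttagGGACTctgtcccc

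Ugt8a, coding sequence, exon 5, chr3:125867502-125867522, minus strand: tgtcaatcGGACTacctattg

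GGACT stood in the exonic part of 7 of the 26 shared intervals of the 9 genes, against 38.9% of the 20774 shared intervals that lay over exons of a single protein-coding gene. The shorter GGAC, which includes every GGACT, stood in 17 of 26, against 76.2% of all. Shared intervals had a median length of 330.5 nt in the 9 genes and 336.0 nt over all. These lengths include non-exonic bases, which were not searched for the counts above. A match to these letters does not show that a site is methylated. The lists give no strand, and only the strand of the gene was searched.

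**Figure D1:**
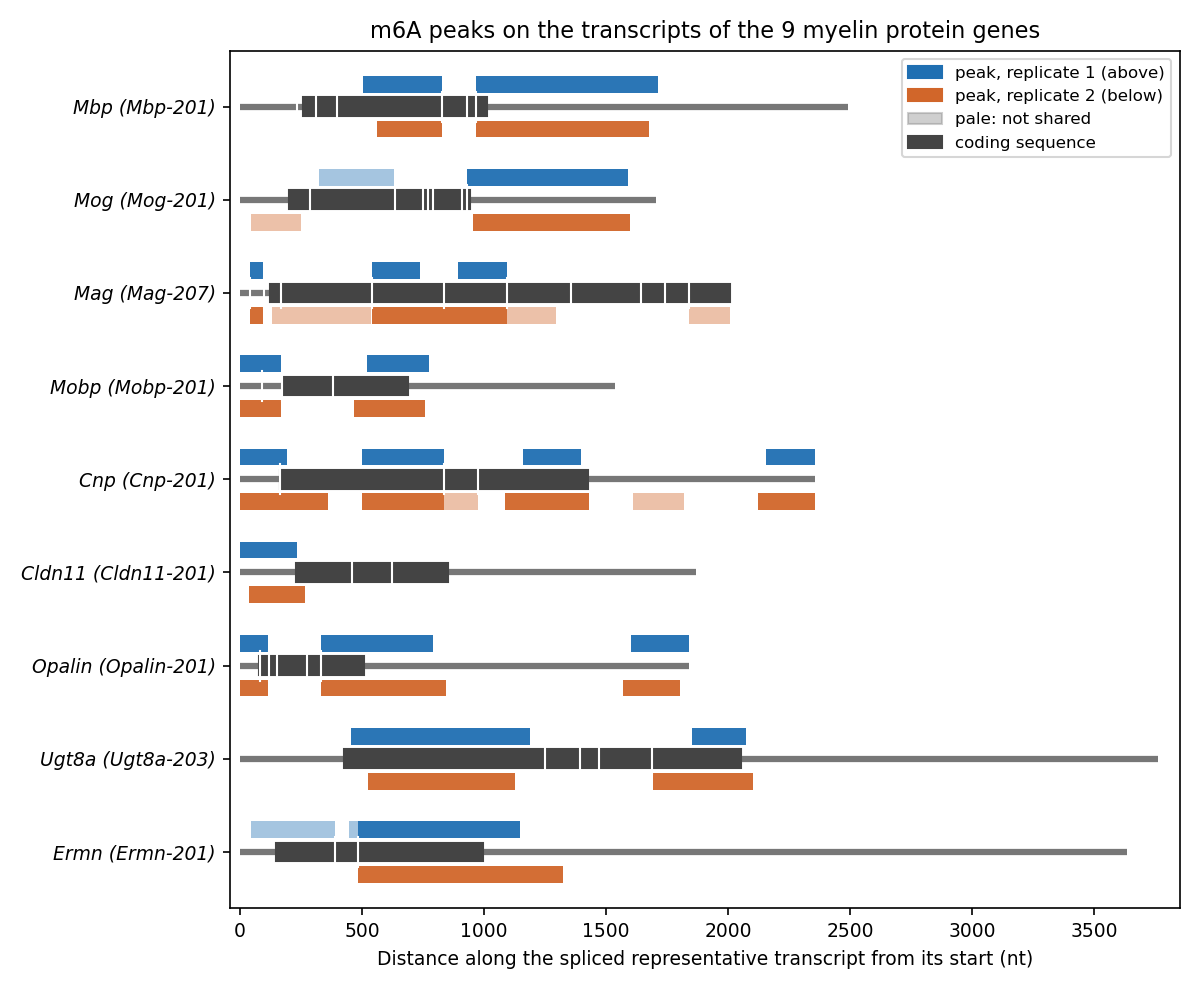
Peaks along the spliced representative transcript of each gene, in nt from the transcript start: blue above the transcript for replicate 1, orange below for replicate 2, pale where the other replicate had no overlapping peak, dark boxes for coding sequence, white ticks for exon borders. Peaks that lay only on exons of other transcripts are left out; Cldn11 has a single peak at its 5′ end in each replicate, whereas Cnp has 5 and 7 peaks from end to end.

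Mbp encodes myelin basic protein, which holds the cytoplasmic faces of compact myelin together. From an upstream promoter the locus also makes the longer Golli transcripts, to which the representative Mbp-201 belongs. Mbp had 2 exonic peaks in replicate 1 and 3 in replicate 2. The stronger one, at chr18:82554427-82554776 with Enrichment 2.58 in replicate 1 and chr18:82554484-82554750 with 1.55 in replicate 2, lay in coding exon 4 of Mbp-201. It also held the first base of 11 of the 14 coding Mbp transcripts in replicate 1 and of 10 in replicate 2, and the start codon of 11 in both. On Mbp-201 its bases were all coding, and on the 11 shorter transcripts it held 171 coding bases, with up to 110 bases of 5′ UTR in replicate 1 and up to 96 in replicate 2. The last exon carried the other shared peak, with Enrichment 1.75 and 1.35, which began in both replicates at the first base of that exon, held the stop codon of 12 coding transcripts and reached 701 nt into the 3′ UTR in replicate 1 and 664 nt in replicate 2. A peak of replicate 2 alone, with Enrichment 1.10, covered 123 nt of an exon that 5 other coding transcripts use. Intronic peaks, which were not counted, had Enrichment 2.08 and 2.65 in replicate 1 and 2.82 in replicate 2 within chr18:82566856-82567763, and in each replicate the highest of them was above every exonic peak of Mbp. Replicate 2 alone had 2 further intronic peaks, with Enrichment 3.27 over the pseudogene Rpl21-ps8 and 1.51 elsewhere.

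Mobp, the myelin-associated oligodendrocyte basic protein of compact central myelin, had 8 peaks in replicate 1 and 6 in replicate 2. Its strongest was at the transcript start, with Enrichment 3.42 in replicate 1 and 3.52 in replicate 2. Both replicates began at the same base, and the interval held the first base of 4 of the 5 coding transcripts, but 91 of its 376 common bases were exonic and the other 285 lay upstream or in the first intron. The next peak, over untranslated exon 2, had Enrichment 2.19 and 1.86, with 79 of 343 common bases exonic. Mobp transcripts end in different last exons, and peaks lay over several of them. On Mobp-201 a peak covered the end of the coding sequence and its stop codon, with Enrichment 1.55 and 1.83. On the 3′ UTR of Mobp-202 a shared peak had Enrichment 1.69 and 1.81, and 3 further peaks were found in 1 replicate each, at 2.12 and 1.69 in replicate 1 and 1.40 in replicate 2. The last exon of Mobp-204, annotated as a target of nonsense-mediated decay, had 2 peaks in replicate 1, with Enrichment 2.51 over 504 nt and 2.71 over 1192 nt, and a single peak of 1696 nt with Enrichment 1.42 in replicate 2. These peaks also overlapped the last exon of the retained-intron transcript Mobp-205, by 117 nt in replicate 1 and 50 nt in replicate 2. The same stretch was thus called as 2 narrow, higher peaks in replicate 1 and as a wide, lower one in replicate 2.

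**Figure D2:**
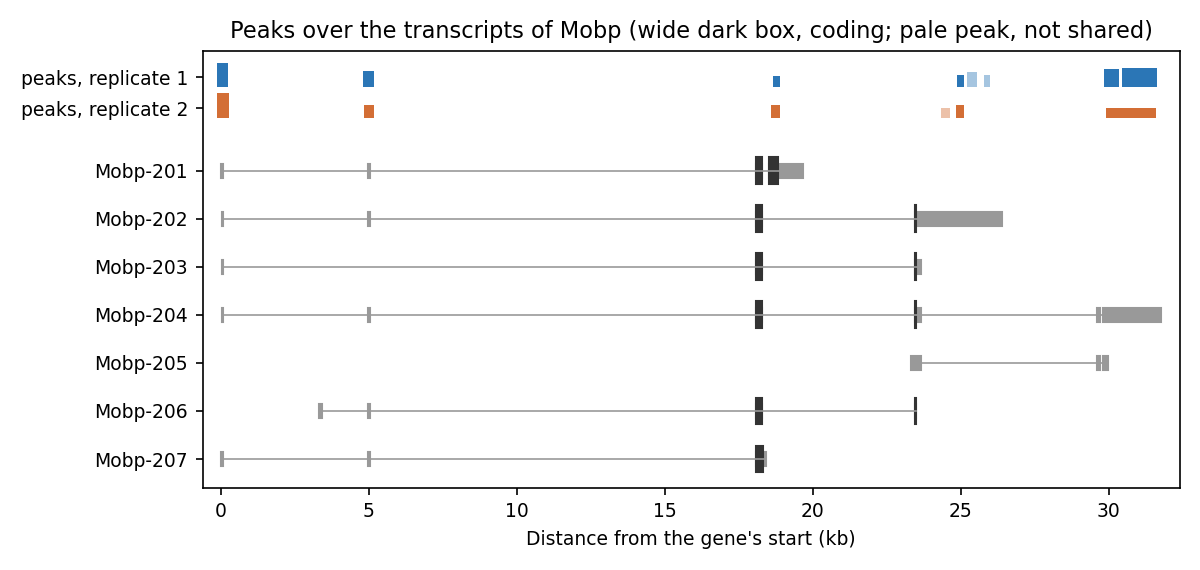
Peaks of both replicates over the 7 annotated transcripts of Mobp, in kb from the start of the gene: bar height grows with Enrichment, pale bars have no overlapping peak in the other replicate, and wide dark boxes are coding sequence. The tallest bars stand at the transcript start (3.42 and 3.52), and separate groups of bars lie over the last exons of Mobp-201, Mobp-202 and Mobp-204.

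Mog encodes the myelin oligodendrocyte glycoprotein, an immunoglobulin-domain protein on the outer surface of the sheath. Its shared peak lay in the last exon, with Enrichment 2.76 in replicate 1 and 1.80 in replicate 2. In replicate 1 the peak included the last 14 coding bases of Mog-201 and its stop codon, and in replicate 2 it began at base 955 of the transcript, past the coding sequence, which ends at base 943. Each replicate had 1 further peak that the other lacked. In replicate 1 it lay in coding exon 2, with Enrichment 1.83, and in replicate 2 it held the start codon, with Enrichment 1.64.

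Mag encodes a sialic acid-binding protein of the membrane that faces the axon. It had 4 peaks in replicate 1 and 7 in replicate 2, and all 4 of replicate 1 were shared. The peak over the first exon of 3 coding transcripts other than the representative had Enrichment 2.71 and 1.85, but 31 of its 204 common bases were exonic. Over untranslated exon 2, which has 56 nt, both replicates called the same 344 bases with Enrichment 1.38 in each. Coding exon 5 had Enrichment 1.45 in replicate 1 and 2.29 in replicate 2, and coding exon 6 had 1.52 and 1.18. Replicate 2 alone had peaks over coding exons 3 and 4 together (1.63), exon 7 (1.14) and the last exon (1.66). Thereby 69.1% of the bases of Mag-207 lay under a peak in replicate 2, against 22.7% in replicate 1. The last-exon peak was coding on Mag-207, whose annotation ends at the stop codon. On Mag-203 and Mag-201 the same peak lay in the 3′ UTR.

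Opalin encodes a transmembrane glycoprotein of oligodendrocytes, and it had 4 peaks in each replicate, all of them shared. The stop codon region of exon 6 had Enrichment 2.84 in replicate 1 and 2.06 in replicate 2. The 3′ end of the transcript had 2.44 and 2.59, the transcript start 2.60 and 2.30, and exon 2, a coding exon of 36 nt, 1.95 and 1.73. Of the common bases at the start 80 of 373 were exonic, and over exon 2 it was 36 of 200. Both GGACT sites of Opalin under a peak of both replicates lie in exon 6, one in the coding sequence under the stop codon peak and one 1236 nt past the stop codon under the peak of the 3′ end. Replicate 1 also had an intronic peak with Enrichment 3.58, higher than every exonic peak of the gene, with none in replicate 2.

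Cldn11, the claudin of the tight junctions in the myelin sheath, had the fewest peaks, 1 in each replicate. It lay in exon 1 over the 5′ UTR and the start codon, with Enrichment 2.02 in replicate 1 and 1.54 in replicate 2, and 200 common bases, all exonic. No peak was called over the remaining exons, and none of the exons of Cldn11 contained GGACT, although GGAC occurred 2 times within the shared interval.

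Cnp encodes CNPase, a phosphodiesterase that is abundant in the noncompact parts of myelin. It had 5 peaks in replicate 1, all shared, and 7 in replicate 2. The strongest lay in coding exon 2, with Enrichment 3.38 in replicate 1 and 2.56 in replicate 2, over codons 113 to 225. The transcript start had 1.90 and 1.98, again beginning at the same base in both. Other shared peaks lay near the end of the coding sequence (1.37 and 1.33), at the 3′ end (1.32 and 1.54) and over the start of exon 2 with the adjoining exon of other transcripts (1.08 and 1.08), the last with the lowest Enrichment of all member peaks. Replicate 2 alone had peaks over exon 3 (1.39) and in the 3′ UTR (1.44). A peak within the Cnp locus with Enrichment 3.04 and 1.85 was not counted, since it lay over exons of Dnajc7 and not of Cnp. The coding stretch around the GGACT of the strongest peak is printed next, chr11:100576705-100576855, plus strand, codons 158 to 208, with GGAC or GGACT in capitals.

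Cnp: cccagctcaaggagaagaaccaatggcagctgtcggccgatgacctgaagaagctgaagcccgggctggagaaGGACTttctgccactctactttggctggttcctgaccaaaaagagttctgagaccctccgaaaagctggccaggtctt

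Ugt8a encodes the ceramide galactosyltransferase that makes galactosylceramide, a main lipid of myelin. It had 2 peaks in each replicate, both shared. The peak in the coding part of exon 1 of Ugt8a-203 had the highest Enrichment of any member peak in replicate 1, 3.71, and 2.13 in replicate 2, a ratio of 1.74 between the replicates. Its 603 common bases, codons 33 to 234, contained no GGAC at all. The related sequence GAACT, in which m6A is also found, occurred 2 times in it, and stood in the exonic part of 33.3% of all shared intervals. The stop codon peak of Ugt8a went the other way between replicates, with 1.54 in replicate 1 and 2.01 in replicate 2. The stretch around the GAACT nearer the 3′ end is printed as part of this peak without GGAC, chr3:125914819-125914969, minus strand, codons 164 to 214, with GAACT in capitals.

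Ugt8a: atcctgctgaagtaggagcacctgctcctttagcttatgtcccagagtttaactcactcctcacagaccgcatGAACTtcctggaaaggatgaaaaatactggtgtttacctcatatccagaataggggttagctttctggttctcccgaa

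Ermn encodes ermin, an actin-binding protein of late oligodendrocytes. It had 3 peaks in replicate 1 and 1 in replicate 2. The shared peak covered the coding part of the last exon from its first base and the stop codon, with Enrichment 3.63 in replicate 1 and 2.52 in replicate 2. Replicate 1 alone had peaks at the 5′ end with the start codon (1.59) and over the last 38 nt of coding exon 2 (1.39). Its coding sequence held GGACT and a further GGAC close together within the shared interval, chr2:58047860-58048010, minus strand, codons 197 to 247, with GGAC or GGACT in capitals.

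Ermn: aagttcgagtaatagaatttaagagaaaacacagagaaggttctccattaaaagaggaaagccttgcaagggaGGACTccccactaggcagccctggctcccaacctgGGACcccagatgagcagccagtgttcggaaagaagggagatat

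**Figure D3:**
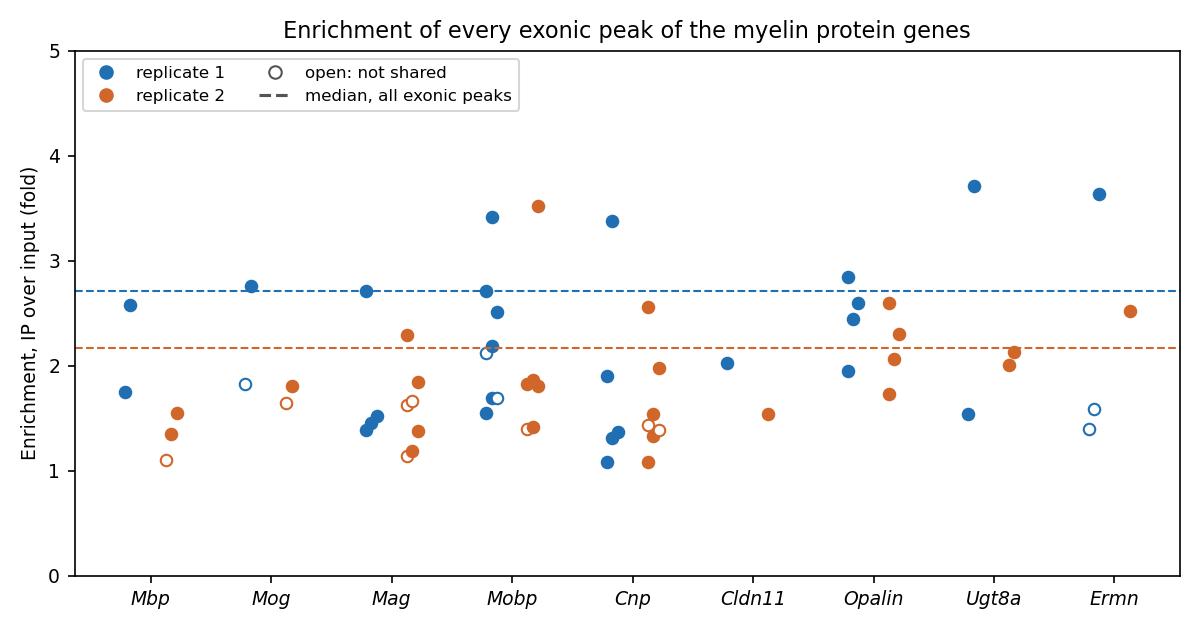
Enrichment (fold of IP over input, linear axis from 0) of every exonic peak of the 9 genes, blue for replicate 1 and orange for replicate 2, open circles where the other replicate had no overlapping peak; dashed lines are the medians of all exonic peaks, 2.71 and 2.17. Of the member peaks, 25 of 31 and 27 of 33 lie under the line of their replicate.

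Enrichment of the member peaks was low among all peaks over exons of protein-coding genes. The median of the 31 member peaks of replicate 1 was 1.95 with a range of 1.08 to 3.71, and the median of all 31981 exonic peaks was 2.71. In replicate 2 the medians were 1.66 for the 33 member peaks, with a range of 1.08 to 3.52, and 2.17 for all 28260. Taking only the strongest peak of each gene, all 9 genes were under the median gene in replicate 1, and 8 of 9 were in replicate 2, the exception being Mobp. A matched pair, in which a peak of each replicate has the other as its best overlap, reached an Enrichment of 2 in both replicates in Mobp, Cnp, Ermn, Opalin and Ugt8a, 5 of 9 genes, against 80.6% of all genes with a shared interval. At a threshold of 3 only Mobp was left. Its pair was the one at the transcript start, with 91 of 376 common bases exonic. The other matched pairs of Mobp had a lower Enrichment of 1.42 to 1.86. The lists give no RNA level, so the part of transcript abundance in these folds was not tested.

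The median number of peaks per kb of exon was 0.98 in replicate 1 and 0.88 in replicate 2, against 0.49 and 0.47 over all genes with a peak. The members ranged from 0.24 to 1.37 in replicate 1 and from 0.28 to 1.92 in replicate 2. Mbp (0.24 and 0.35) and Ugt8a (0.44 and 0.44) were under the median of all genes in both replicates, and Ermn (0.83 and 0.28) was in replicate 2. The representative transcripts were covered to a median of 28.8% and 39.2%, against 22.1% and 21.8%. Coverage ran from 12.6% and 12.5% in Cldn11 to 56.9% for Mog in replicate 1 and 69.1% for both Mag and Cnp in replicate 2. The exons of a member summed to a median of 3639 nt, against 4894 nt over all genes with a shared interval. Member peaks were about as long as others, with medians of 343 and 355 nt against 358 and 345 nt.

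The 25 matched pairs of the 9 genes had a median ratio of 1.13 between replicate 1 and replicate 2, with a range of 0.63 to 1.91, and 16 of 25 were higher in replicate 1. Over all 20999 matched exonic pairs the median ratio was 1.29, the upper quartile was 1.61, and 78.3% were higher in replicate 1. The ratio exceeded 1.5 in either direction in 5 pairs, which lay in Mbp, Mog, Mag, Mobp and Ugt8a. In order of the lower Enrichment of their strongest pair, the genes ran from Mobp (3.42) through Cnp (2.56), Ermn (2.52), Opalin (2.44), Ugt8a (2.13), Mag (1.85), Mog (1.80) and Mbp (1.55) to Cldn11 (1.54). The pairs that placed Mobp and Mag were mostly non-exonic, with 91 of 376 and 31 of 204 common bases exonic. With 2 replicates this order is loose. In replicate 1 Ugt8a (3.71) and Ermn (3.63) stood above Mobp (3.42), and neighbours such as Cnp, Ermn and Opalin differed by less than their own replicates did. In 7 of 9 genes the strongest peak of replicate 1 was matched to the strongest of replicate 2, the exceptions being Mag and Opalin.

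**Figure D4:**
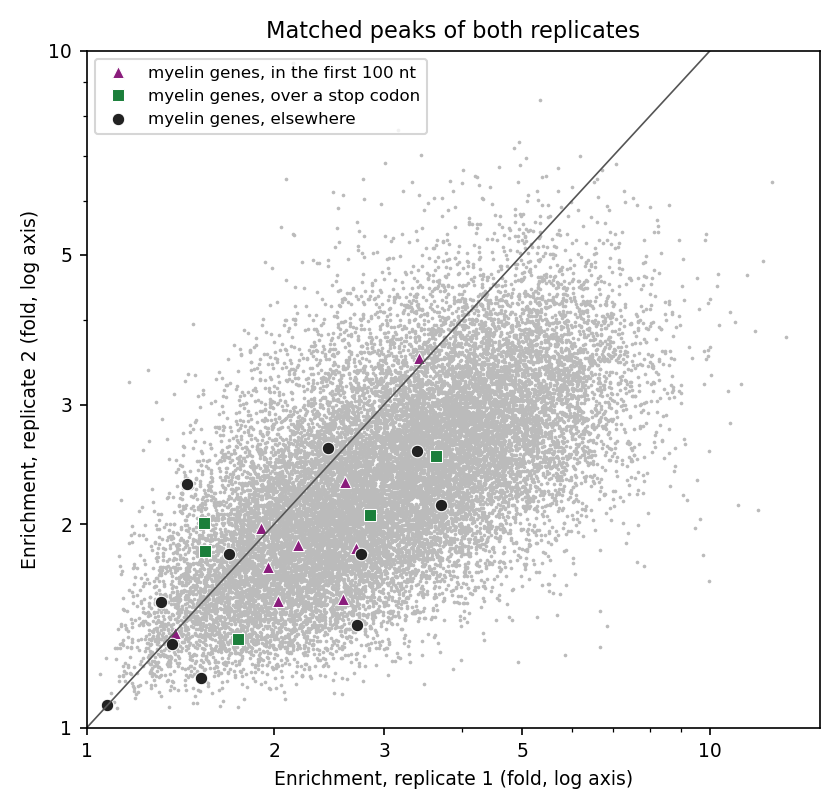
Enrichment of matched peaks in replicate 1 (x axis) and replicate 2 (y axis), both log axes, with all 20999 exonic pairs in grey, the line of equal values, and the 25 pairs of the myelin genes as triangles (first 100 nt of a coding transcript), squares (over a stop codon) or circles (elsewhere). Of the myelin pairs 16 lie below the line, against 78.3% of all exonic pairs, and all 25 myelin pairs lie under 4 on both axes.

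Where peaks stood along the transcripts was then compared with other genes. A shared interval touched the first 100 nt of a coding transcript in 6 of 9 genes, Mbp, Mobp, Mag, Opalin, Cldn11 and Cnp, against 34.1% of all genes with a shared interval. Mog had such a peak in replicate 2 alone, Ermn in replicate 1 alone, and Ugt8a in neither. Of all member peaks, 22.6% in replicate 1 and 24.2% in replicate 2 had more non-exonic than exonic bases. Over all peaks on exons of protein-coding genes these shares were 20.6% and 16.4%. Of the 9 matched pairs in the first 100 nt, 6 had more non-exonic than exonic bases, which was true of none of the 16 other pairs. Exons of all annotated transcripts were counted here. Among the 16, the pair over the start of Cnp exon 2 was exonic mostly through noncoding transcripts. Its replicate 1 peak had 27 bases on the coding Cnp-201. Among the 6 mostly non-exonic pairs, those over exon 2 of Mag, Mobp and Opalin held the first base of no coding transcript. No exonic GGAC stood in the 6 pairs, but each had only 31 to 91 exonic bases to search. Without mostly non-exonic intervals 3 of 9 genes remained, Mbp, Cnp and Cldn11, against 28.4% of all genes. Near the cap, anti-m6A antibodies are known to bind a related doubly methylated adenosine (m6Am) as well, and the lists cannot tell these marks apart. A stop codon lay under a shared interval in 5 of 9 genes, Mbp, Mobp, Opalin, Ugt8a and Ermn, a share close to the 53.7% over all genes with a shared interval. Mog, Mag and Cnp had a peak over a stop codon in 1 replicate each, in Mag that of 1 of 6 coding transcripts, and Cldn11 had none. Mbp, Mobp and Opalin had shared intervals of both kinds.

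A further list held 31 genes of myelin, oligodendrocytes, axoglial contacts, and glial junctions and channels. Peaks from whole brain do not tell which cell type made these mRNAs. Of the 31, 26 had an exonic peak in replicate 1, 27 in replicate 2 and 24 a shared one. Without a peak in either were Tspan2 and Cd9, both tetraspanins, Enpp6, a choline phosphodiesterase, and Qdpr, dihydropteridine reductase. Of the 5 groups in this list, the lipid enzymes had a shared interval in 4 of 6 genes and a median lower Enrichment of 1.46, with Aspa highest (1.98 and 1.67). Over their strongest peaks the median of the lipid enzymes was 3.24 in replicate 1 and 1.47 in replicate 2. The structural and membrane proteins had 5 of 8 and a median of 2.33, with Gpm6b highest (4.94 and 2.59). The cytoskeletal and other proteins had 6 of 8 and a median of 1.98, with Gpr37 highest (3.45 and 2.61). The axoglial contact proteins had 5 of 5 and a median of 2.67, with Cntnap1 highest (3.34 and 3.62), and the glial junction and channel proteins had 4 of 4 and a median of 2.96, with Kcnj10 highest (4.36 and 3.13).

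The same measure, the lower Enrichment of the strongest matched pair, had a median of 2.13 in the 9 myelin protein genes and 2.64 in the 9981 genes with such a pair. In 10 transcription factors of the oligodendrocyte lineage all 10 had a shared interval and the median was 2.41, with Sox8 highest (4.68 and 4.02). In 10 genes of oligodendrocyte precursors 8 had a shared interval and the median was 3.54, with Gpr17 highest (5.11 and 4.08). In 10 astrocyte genes it was 9 and 2.50, with Gja1 highest (5.30 and 3.23). At an Enrichment of 2 in both replicates there were 10 of 10 transcription factors, 8 of 10 precursor genes and 7 of 10 astrocyte genes, next to the 5 of 9 myelin protein genes. The groups overlapped gene by gene, since Mobp at 3.42 stood above 9 of the 10 transcription factors. That Mobp pair was mostly non-exonic, but Cnp at 2.56, from a pair in coding exon 2, also stood above Olig1 at 2.25. No test of the difference between the lists was made. Exon length differed as well, with a median of 3639 nt in the myelin protein genes, 2963 nt in the transcription factors, 7609.5 nt in the precursor genes and 5374.5 nt in the astrocyte genes.

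**Figure D5:**
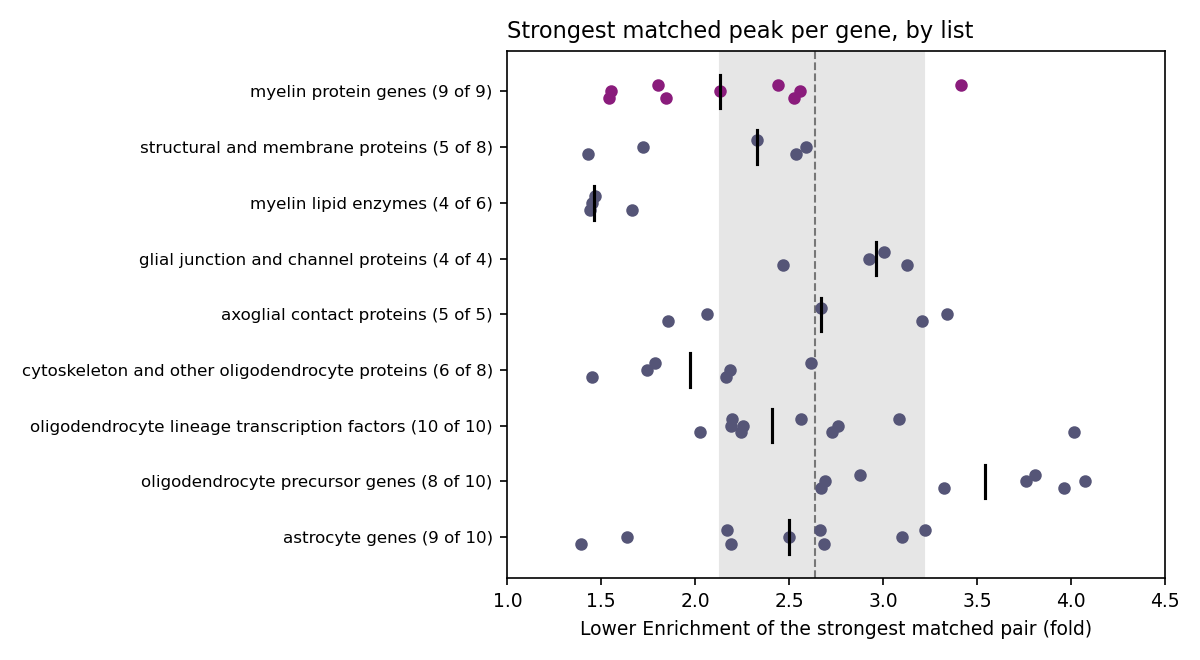
Lower Enrichment of the strongest matched pair of each gene (x axis, fold), a point per gene, by gene list, with the number of genes that have a shared interval in parentheses; black bars are list medians, and the grey band and dashed line are the quartiles and the median (2.64) of all 9981 genes with a matched pair. The 9 myelin protein genes (purple) run from 1.54 to 3.42, and 8 of them lie left of the dashed line.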

How the data were processed

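m6A-seq was made from whole mouse brain. Per the methods, the authors trimmed reads (Cutadapt, Trimmomatic), aligned them to mm10 with TopHat (TopHat2 version 2.0.9 in the submitters' processing notes; the methods name another version), kept uniquely mapped reads and called peaks in each IP against its input with MACS2, without a fragment model and at a false discovery rate threshold. Reads placed by such a caller are extended along the genome, so a peak over a short exon can run into introns. The deposited Enrichment is a ratio, the fold of IP over input, used as deposited. Positions count from 1 with both ends included, and no peak was shorter than 200 nt.

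Overlaps with GENCODE M21 exons (at least 1 bp) were computed in Python 3.11.15, checked against bedtools 2.31.1 and tested on simulated data. The representative transcript is the coding one with the longest coding sequence, then the longest overall. Shared intervals are the bases common to peaks of both replicates. No peak ended beyond its chromosome, and the start codon of each of the 9 representative transcripts read as ATG in the genome. Genes named outside the 9 were those with the highest lower Enrichment in their list and those with no peak where 5 or fewer. The 9 genes and the lists were chosen with earlier results of these data known. No tests were made, since peaks and genes are not replicates and there was 1 condition. Alternatives changed the overlap, exon set, Enrichment minimum, sharing rule and motif.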

Additional observations from a re-analysis of the deposited data

How the results depend on the processing

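Of 64 alternative values for 16 results, 43 stayed within the main value's tolerance (a count within 1.5 times, a median within the spread of peaks or pairs) and 21 moved. Counts, percents and medians of a fold have no direction to change. Only the median log2 ratio between replicates has a sign, and it was 0.18 in the main setting and 0.21 over all overlapping pairs. Each list taken alone, without m6A IP replicate 1 or without m6A IP replicate 2, gave 9 of 9 genes. That outcome was fixed, since all 9 genes had a peak in both replicates. Leaving out peaks over exons of other genes could likewise change nothing, because no member peak touched one. An Enrichment minimum moved most values. At 2, the peaks fell to 15 in replicate 1 and 9 in replicate 2 with medians of 2.71 and 2.30, genes with a shared peak to 5, and shared peaks to 7 in each replicate. At 3, 4 and 1 peaks were left with medians of 3.52 and 3.52, in 1 gene with a peak in both replicates and 1 gene with a shared peak, with 1 shared peak in each replicate. Intervals with GGACT numbered 17 as GGAC and 4 in the 100 nt around the middle. By midpoint 6 of the 26 shared intervals lay in the 5′ UTR, 9 in coding sequence and 5 in the 3′ UTR. The other midpoints lay on no exon of the representative transcript. By any base, where an interval can count more than once, the numbers were 6, 16 and 8. The percent of protein-coding genes with a peak in both replicates was 47.1, and 83.0 of genes with a peak in at least 1. Genes with a shared interval in the first 100 nt of a coding transcript fell from 6 to 3 without intervals that were mostly non-exonic. That alternative was chosen after seeing the data, as were the representative start, the representative stop codon and the search of non-exonic bases for GGACT. No paired analysis was possible because no test was made on 2 replicates of 1 condition. The number of reads behind a peak is unknown, so no bound can be set for a region without one.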
